A study of Mus musculus with 1479 samples.

Results

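The genes described here are 7 known markers of adventitial, or universal, fibroblasts: Pi16, Dpp4, Ly6a, Ly6c1, Cd248, Clec3b and Penk. They were chosen by name as a Pi16 and Dpp4 type programme known from other organs, and all 7 were found among the 46517 gene rows of a table of 1479 cells sorted singly from the urinary bladder of mice. The question was which clusters of bladder fibroblasts carried them. Each cell was sorted into its own well and read with Smart-seq2, a full-length method without molecular identifiers, and its label gave a mouse line, a plate and 1 of 11 clusters that the study had drawn from the same expression values.

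All mice were adult males of 10 to 20 weeks on the C57Bl6/J background. The lines were C57BL6 without a reporter (190 cells), PdgfrbGFP with a transgene in which Pdgfrb sequences drive eGFP (810 cells), PdgfraGFP with a nuclear GFP knocked into Pdgfra (147 cells), Cspg4dsRED with a Cspg4-DsRed.T1 transgene (203 cells) and Acta2GFP with an Acta2-GFP transgene (129 cells). Every suspension was made with a muscle dissociation kit and collagenase IV, with elastase added for Acta2GFP, and cells bearing the endothelial protein CD31 were left out of the sort. Cells were gated on a reporter or on antibodies to PDGFRα or PDGFRβ, so each line offers the cells its gate admits and not the make-up of the bladder wall. No animal is named in the labels, and combined strains were used in the study as well. A line is therefore treated as a replicate by assumption, and p-values measure the spread between lines, which may be technical. C57BL6 had plate 443s to itself and 177 of the 203 Cspg4dsRED cells filled plate 352s, so line and plate cannot be told apart for these cells, among them all 85 Cspg4dsRED cells of cluster 9 and 16 of the 17 of cluster 4, whereas Acta2GFP shared plate 515s with PdgfrbGFP and PdgfraGFP shared plate 689s with Cspg4dsRED.

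The clusters fell into 3 kinds. Clusters 1, 2, 3, 4, 6, 7, 8, 9 and 11 held 1278 cells and are called the 9 main fibroblast clusters below. Cluster 5, with 76 cells, was described by the study as lying beneath the epithelium, and all 4 of its markers Tnc, Cxcl14, Bmp5 and Bmp7 were higher there. Cluster 10, with 125 cells, was described as mural, and 9 of 9 mural markers were higher and 5 of 5 fibroblast markers lower there. Total reads per cell, spike-ins included, started at 50276 and had a median of 214893, and the median by cluster ran from 110330 reads in cluster 4 to 306896 in cluster 6. In cluster 9, 93.4% of the cells were of Cspg4dsRED, and in cluster 11, 84.3% were of Acta2GFP. Cluster 4 held 23 cells, 17 of Cspg4dsRED, 4 of PdgfrbGFP and 2 of PdgfraGFP, so it enters the tests with 2 lines. The summed levels of endothelial, immune, urothelial, mesothelial and Schwann cell markers reached at most 93.7 reads per 500000 in any cluster, against 7210 to 17493 for the fibroblast markers outside cluster 10.

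Fibroblasts build and repair the connective tissue of an organ. Those in the adventitia, the outer coat of larger vessels, share a set of surface and secreted proteins across organs and are often found by Pi16 or Dpp4, while those between the functional cells of a tissue carry other matrix genes. Of the surface proteins, Pi16 (peptidase inhibitor 16) belongs to the CAP family, Dpp4 (dipeptidyl peptidase 4, CD26) trims peptides outside the cell, Ly6a (Sca-1) and Ly6c1 are lipid-anchored proteins of the Ly6 family, and Cd248 (endosialin) is a transmembrane glycoprotein. Of the secreted ones, Clec3b (tetranectin) binds plasminogen and Penk (proenkephalin) is the precursor of the enkephalin opioid peptides.

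On GRCm38, Pi16 lies at chr17:29317680-29330593 on the plus strand, Dpp4 at chr2:62330073-62412231 on the minus strand and Cd248 at chr19:5068078-5070682 on the plus strand. Ly6a at chr15:74994877-74998031 and Ly6c1 at chr15:75044018-75048830 are neighbours on the minus strand of 1 chromosome. Clec3b lies at chr9:123150946-123157432 on the plus strand and Penk at chr4:4133531-4138819 on the minus strand. The counts are reads over the exons of each gene.

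A pair of sequences is shown because it decides how far the Ly6c1 count can be told from that of its copy Ly6c2. Both are the first 300 of 396 coding bases from GENCODE M21, spread over 3 coding exons on the minus strand (Ly6c1 at chr15:75045498-75048511, Ly6c2 at chr15:75108639-75111667), with the bases that differ in capitals.
Ly6c1: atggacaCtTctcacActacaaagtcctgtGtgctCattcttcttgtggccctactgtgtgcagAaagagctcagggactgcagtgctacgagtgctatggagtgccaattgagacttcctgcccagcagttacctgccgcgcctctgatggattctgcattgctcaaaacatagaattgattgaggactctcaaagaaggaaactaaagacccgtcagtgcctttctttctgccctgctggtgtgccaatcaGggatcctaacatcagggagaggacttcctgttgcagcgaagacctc
Ly6c2: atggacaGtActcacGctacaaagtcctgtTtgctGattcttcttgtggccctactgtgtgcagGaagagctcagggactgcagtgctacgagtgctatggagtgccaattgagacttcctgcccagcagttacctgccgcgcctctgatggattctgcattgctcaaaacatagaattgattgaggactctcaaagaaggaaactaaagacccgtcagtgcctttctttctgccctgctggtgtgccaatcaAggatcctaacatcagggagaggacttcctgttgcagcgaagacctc
The stretch shown holds 7 of the 9 differing bases, the coding sequences are 97.7% identical, and the longest identical run is 188 bases, longer than a read of 50 bases. Of the 50-base windows along the Ly6c1 exons 32.8% also occur in another gene, most of them in Ly6c2, and for Ly6a the share was 19.0%, most of them in Ly6c1. The table held 94769 reads of Ly6c1 and 535 of Ly6c2, and adding the counts of both changed none of the calls below.

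The second sequence is shown because Penk is the gene on which most of the results turn. It gives coding bases 274 to 573 of 807, in 1 exon at chr4:4134073-4134372 on the minus strand, with 4 of the 7 enkephalin-encoding runs of 15 bases in capitals.
Penk: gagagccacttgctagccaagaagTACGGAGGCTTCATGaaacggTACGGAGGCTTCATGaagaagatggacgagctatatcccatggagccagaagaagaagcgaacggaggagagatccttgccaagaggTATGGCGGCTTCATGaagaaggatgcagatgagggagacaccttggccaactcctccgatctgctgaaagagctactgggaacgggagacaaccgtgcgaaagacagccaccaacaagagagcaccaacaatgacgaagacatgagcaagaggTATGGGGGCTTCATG
Each run in capitals encodes 1 copy of an enkephalin peptide. Penk overlaps A830012C17Rik on the opposite strand, the library kit does not mark strand, and 8.60% of the 50-base windows of Penk are shared with another gene, so reads of the overlap cannot be assigned to 1 of them.

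Levels were scaled to 500000 endogenous reads in each cell. They were averaged within a line and then across lines with at least 3 cells in the cluster. Per kilobase of exon, the median of the main cluster means was 402 for Ly6a, 384 for Pi16, 295 for Cd248, 277 for Clec3b, 79.7 for Ly6c1, 67.7 for Penk and 0.649 for Dpp4. Per length, Dpp4 was thus the least read of the 7 genes and Ly6a and Pi16 the most. Across the main clusters Dpp4 ran from 0 in cluster 4 to 23.3 in cluster 8, so no ratio is given for it. Of the other 6 genes Penk had the widest range, with its highest mean 22.0 times its lowest, followed by Pi16 at 7.01, Ly6a at 6.06, Cd248 at 5.49, Clec3b at 3.89 and Ly6c1 at 2.08.

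**Figure D1:**
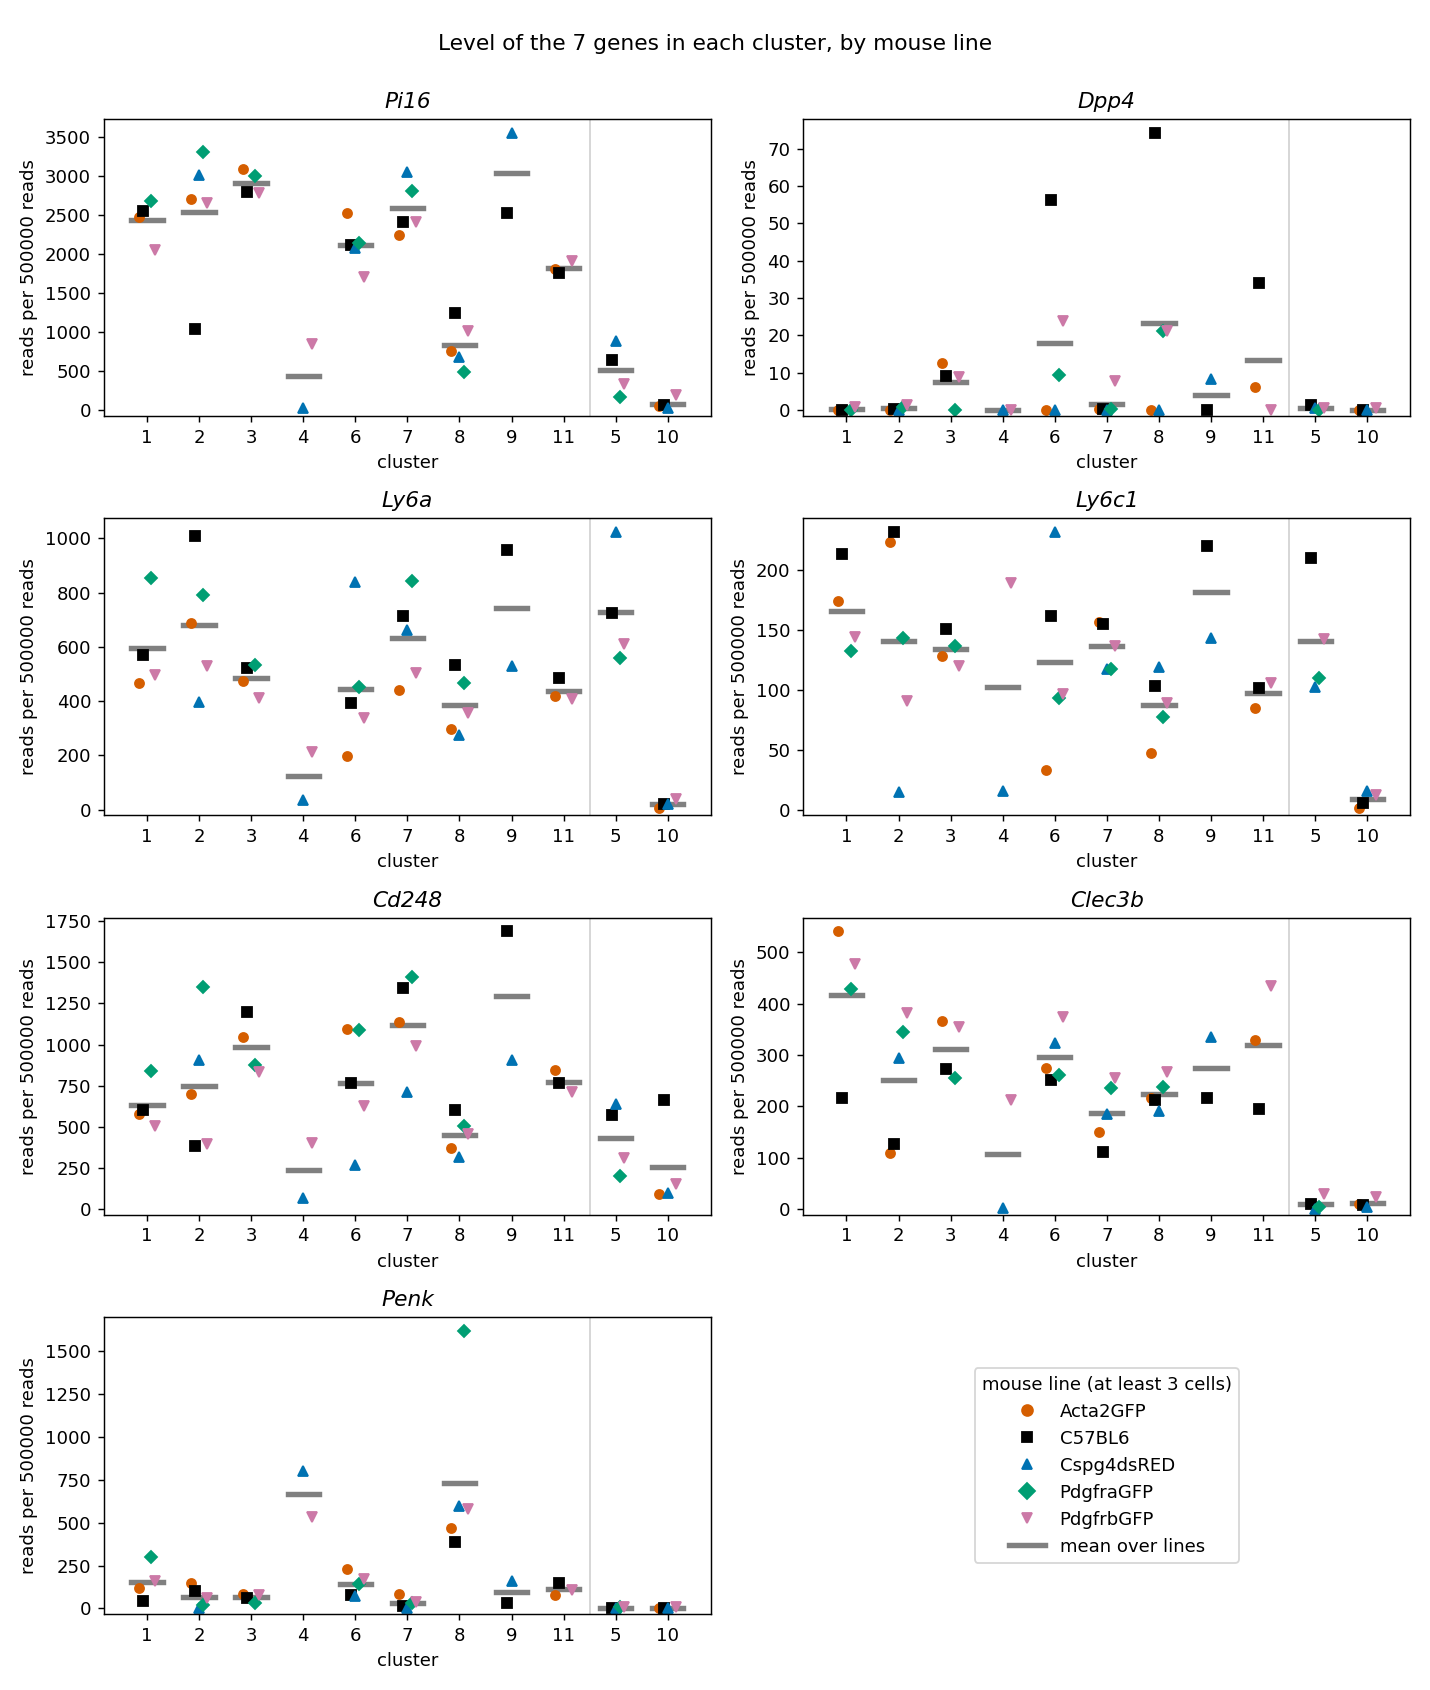
Level of each of the 7 genes (reads per 500000 endogenous reads, linear axis) in clusters 1 to 11, with 1 point for each mouse line with at least 3 cells and a bar at the mean over lines. Pi16 stands between 1703 and 3557 in clusters 1, 3, 6, 7, 9 and 11 and at 1249 or less in clusters 8, 5, 4 and 10, while Penk is highest in clusters 8 and 4.

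The first comparison asked whether a gene varied among the 9 main fibroblast clusters at all. Of the 7, Penk passed the test. In a joint edgeR quasi-likelihood fit of counts summed by line and cluster, with the line as a block, its Benjamini-Hochberg adjusted p was 0.00924, where 2.7% of the 15807 genes tested passed. The adjusted p was 0.0762 for Pi16, 0.141 for Dpp4, 0.177 for Ly6a, 0.238 for Cd248, 0.661 for Clec3b and 0.963 for Ly6c1. Penk did not pass without PdgfraGFP (adjusted p = 0.0851) or without PdgfrbGFP (adjusted p = 0.207, where Pi16 passed at 0.0013), and 6 of the 7 genes passed when sums were kept apart by plate, where 5.42% of all genes passed. The study drew the clusters from these same counts, so a test between them measures how well a difference recurs from line to line and adds no evidence that the clusters exist.

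Each cluster was next set against the mean of the other main clusters, and a call needed an adjusted p under 0.05 together with a log2 fold change of 1 or more in either direction. Of the 7 genes, 3 calls were made in 9 comparisons: Penk was higher in cluster 8, Penk was lower in cluster 7 and Pi16 was lower in cluster 4. The remaining clusters 1, 2, 3, 6, 9 and 11 had no call by edgeR. At an unadjusted p under 0.05 there were 1 in cluster 2 (Ly6a), 1 in cluster 6 (Dpp4), 2 in cluster 9 (Pi16 and Cd248) and 0 in clusters 1, 3 and 11. DESeq2 called 1 gene in cluster 6 (Dpp4) and 0 in the other 5.

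**Figure D2:**
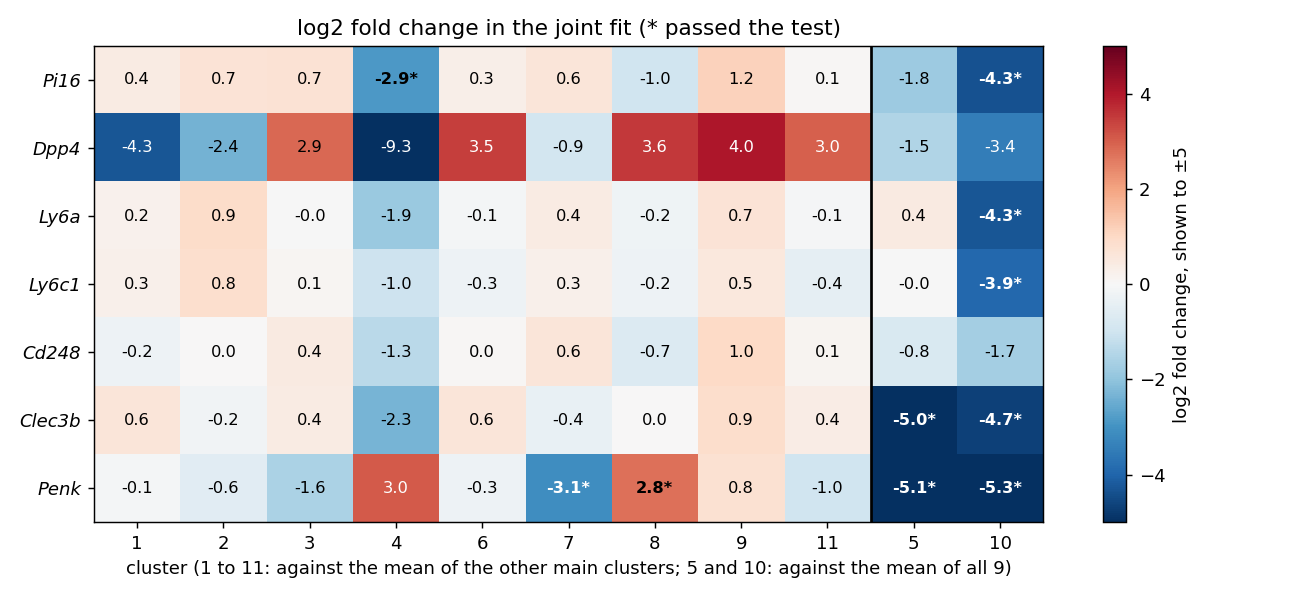
Fitted log2 fold change of each gene (rows) in each cluster (columns), against the mean of the other main fibroblast clusters or, for clusters 5 and 10, the mean of all 9, with the colour limited to ±5 and a star on values that passed the test. The 10 stars fall on Penk in clusters 7 and 8, Pi16 in cluster 4, and 2 genes in cluster 5 and 5 in cluster 10. Values for Dpp4 rest on few reads and have no usable error in clusters 1, 2, 5, 7 and 10, and in cluster 4 both lines were at 0.

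Of the 7 genes, Penk was called in cluster 8. Its level there was 387 in C57BL6, 471 in Acta2GFP, 579 in PdgfrbGFP, 595 in Cspg4dsRED and 1617 in PdgfraGFP, a mean of 730 ± 503 (SD, n = 5 lines). Leaving cluster 4 aside, each of these lines stood above every line of the other main clusters, of which the highest was 302 (PdgfraGFP in cluster 1). Compared with the mean of the other main clusters the log2 fold change was 2.75 (SE 0.55, adjusted p = 0.00407, edgeR), or 6.74-fold, and it was higher in 5 of 5 lines. In this comparison 1.29% of all genes were called higher, Penk being the only one of the 7, and 0.00633% lower. The call was lost without the PdgfrbGFP line, which gave 120 of the 182 cells (2.81, adjusted p = 0.102), and in a fit of 2 classes of cells (2.55, adjusted p = 0.0656).

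Cluster 7 lay at the other end for Penk. There the level was 1.39 in Cspg4dsRED, 13.3 in C57BL6, 32.4 in PdgfraGFP, 35.5 in PdgfrbGFP and 83.2 in Acta2GFP, below the mean of the same line's other clusters in 5 of 5 lines. The log2 fold change was -3.10 (SE 0.79, adjusted p = 0.0273, edgeR), where 0.12% of all genes were called lower and 1.48% higher. The difference from the other clusters kept its direction without any 1 line but lost the call without C57BL6 (-3.14, adjusted p = 0.0973), Cspg4dsRED (-2.39, adjusted p = 0.0912), PdgfraGFP (-2.94, adjusted p = 0.108) or PdgfrbGFP (-3.39, adjusted p = 0.166). Within PdgfrbGFP, the line that was spread over 3 plates, Penk in cluster 8 was 662, 441 and 598 on plates 074s, 515s and 881s and in cluster 7 it was 44.2, 10.2 and 32.1, so the order held on each plate. Of the marker lists, the urothelial gene Krt18 (3.78, adjusted p = 0.0293) and the sub-epithelial gene Bmp5 (5.33, adjusted p = 0.0021) were called higher in cluster 7, and their part in the Penk result was not tested. The 7 urothelial markers summed to 19.3 there, against 0.161 to 15.7 in the other main clusters, with Krt18 at 8.93, Krt5 at 1.10 and Epcam at 0.226. The 4 sub-epithelial markers summed to 58.0, within the 17.0 to 250.1 of the other main clusters and against 1815 in cluster 5.

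At an equal 50000 reads per cell, 135 of 182 cells of cluster 8 had at least 10 Penk reads (74.2%, exact 95% interval 67.2% to 80.4%). The share was 57.1% in cluster 4, 49.2% in cluster 6, 36.2% in cluster 1, 35.3% in cluster 11, 31.9% in cluster 9, 28.9% in cluster 3, 15.6% in cluster 2 and 8.77% in cluster 7. Penk was therefore present in part of the cells of every main cluster, and clusters 8 and 7 stood at the ends of the order in this share as in the mean level. Of the cells of clusters 5 and 10, 0 of 76 and 0 of 125 reached 10 reads.

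Pi16 was high in 7 of the main clusters. Its mean was 3042 ± 728 (SD, n = 2 lines) in cluster 9, 2915 ± 148 (n = 4) in cluster 3, 2587 ± 333 (n = 5) in cluster 7, 2543 ± 880 (n = 5) in cluster 2, 2442 ± 271 (n = 4) in cluster 1, 2113 ± 292 (n = 5) in cluster 6 and 1825 ± 77.7 (n = 3) in cluster 11. Each of these overlapped the next in the order. The lines of cluster 2 ranged from 1041 in C57BL6 to 3306 in PdgfraGFP, the widest spread among the 7. All of the cells in clusters 1, 3 and 6 had at least 10 Pi16 reads at equal depth.

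Cluster 8 was below that range for Pi16. The level was 483 in PdgfraGFP, 685 in Cspg4dsRED, 758 in Acta2GFP, 1015 in PdgfrbGFP and 1249 in C57BL6, and these lines did not overlap those of cluster 11, the next above, whose lowest was 1753. Against the mean of the other main clusters the log2 fold change was -1.01 (SE 0.40, adjusted p = 0.322, edgeR), in 5 of 5 lines in the same direction, and it did not pass. Cluster 4 is part of that mean. When it was left out, an alternative chosen after seeing the data, Pi16 in cluster 8 was -1.41 (SE 0.33, adjusted p = 0.0174) and Penk 3.28 (adjusted p = 0.00089), and both were called, whereas Penk in cluster 7 was not (-2.85, adjusted p = 0.0531). On plates 074s, 515s and 881s of PdgfrbGFP, Pi16 was 1077, 1177 and 755 in cluster 8 and 2555, 3095 and 1785 in cluster 7.

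**Figure D3:**
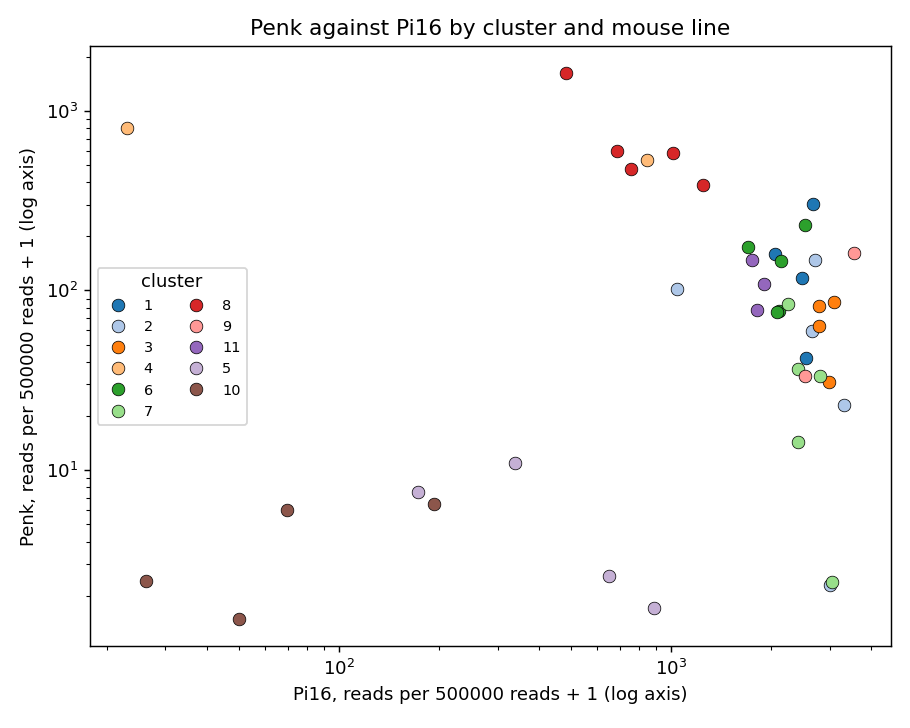
Penk against Pi16 (both reads per 500000 endogenous reads plus 1, log axes), with 1 point for each of the 43 sums of 1 line and 1 cluster, coloured by cluster. The 5 lines of cluster 8 lie at Penk 387 to 1617 with Pi16 483 to 1249, the 5 lines of cluster 7 at Penk 1.39 to 83.2 with Pi16 2250 to 3053, and clusters 5 and 10 are low for both.

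In cluster 4 Pi16 was called lower, and the means of Pi16, Ly6a, Cd248, Clec3b and Dpp4 were the lowest of the main clusters, while those of Ly6c1 and Penk were not. The Pi16 level was 21.9 in Cspg4dsRED and 845 in PdgfrbGFP. Its log2 fold change was -2.89 (SE 0.75, adjusted p = 0.0453, edgeR), or 7.39-fold lower, in 2 of 2 lines, where 0.158% of all genes were called lower and 0.74% higher. The other genes did not pass: the log2 fold change was -2.34 for Clec3b, -1.85 for Ly6a, -1.34 for Cd248, -1.05 for Ly6c1 and 3.05 for Penk (adjusted p = 0.0642). Penk passed with DESeq2 (3.28, adjusted p = 0.0218) and with median-of-ratios scaling (3.26, adjusted p = 0.0329), and its adjusted p over the alternatives ran from 0.012 to 0.804. Without Acta2GFP (adjusted p = 0.0262), without C57BL6 (0.0341), with the median gene set at 0 and with median-of-ratios scaling, Penk was called higher in place of Pi16. Penk was at 799 in Cspg4dsRED and 533 in PdgfrbGFP, next to cluster 8 in the order.

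The 2 lines of cluster 4 differed widely. In Cspg4dsRED and PdgfrbGFP, Clec3b was at 1.03 and 213, Ly6a at 33.6 and 212, Ly6c1 at 15.5 and 189 and Cd248 at 68.8 and 404, so each of these genes was higher in the 4 cells of PdgfrbGFP. The Pi16 call was lost without Cspg4dsRED (-1.68, adjusted p = 0.796), without Acta2GFP (-2.82, adjusted p = 0.0752), without C57BL6 (-2.87, adjusted p = 0.0725), with median-of-ratios scaling (-2.58, adjusted p = 0.0937) and with the median gene set at 0 (-2.40, adjusted p = 0.0898). Under the first of these cluster 4 was the PdgfrbGFP line alone. Without PdgfrbGFP it was Cspg4dsRED alone, a lone line that the fit assumes to vary like the other clusters, and 3 genes were then called lower: Pi16 (-6.91), Clec3b (-8.27, adjusted p = 0.0121) and Ly6a (-3.58, adjusted p = 0.0493). Among 21 cells at equal depth, 3 had reads of at least 5 of the 7 genes.

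Markers of other cell types moved with cluster 4, and their part in the result was not tested. The 5 fibroblast markers summed to 7210, the lowest of any main cluster, and Col1a1 and Col1a2, which encode the chains of type I collagen, were lower (-1.37 and -1.47). Of the 9 mural markers 1 was higher, Cspg4 itself (4.51), whose reporter marks the line with most of the cells, and of the 4 sub-epithelial markers 1, the growth factor gene Bmp7 (7.80). The mural markers summed to 227 against 10595 in cluster 10, with Myh11 at 3.77, the 7 immune markers to 3.82 with Ptprc at 0, the 6 mesothelial markers to 72.7, of which Krt19 gave 72.1 with Msln at 0, the 4 Schwann cell markers to 12.5, of which S100b gave 11.4, and the 8 endothelial markers to 56.1 with Cdh5 at 19.0 and Pecam1 at 7.45. The mesothelial and Schwann sums were the highest of the 11 clusters, and in each of these lists 0 of 2 genes tested were called by edgeR and 1 had an unadjusted p under 0.05. The markers named here were picked after their values were seen.

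Neither Ly6 gene was called in a main cluster. Ly6a had its highest means at 743 ± 304 (SD, n = 2 lines) in cluster 9 and 682 ± 236 (n = 5) in cluster 2 and its lowest outside cluster 4 at 386 ± 111 (n = 5) in cluster 8, where the lines ranged from 274 to 533. In the order of Ly6a the lines overlapped from each cluster to the next down to cluster 8, and not between cluster 8 and cluster 4. In cluster 2 the fold change of Ly6a was 0.93 on the log2 scale (SE 0.29, adjusted p = 0.0746, edgeR), where 2.16% of all genes were called higher and 0.183% lower. It passed with the median gene set at 0 (1.19, adjusted p = 0.00694) and without Cspg4dsRED (1.18, adjusted p = 0.0124), and without PdgfrbGFP both it (1.37, adjusted p = 0.0192) and Pi16 (1.25, adjusted p = 0.0147) passed. For Ly6c1 the means ran from 181 in cluster 9 to 87.0 in cluster 8, and all main clusters overlapped along the order.

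Cd248 and Clec3b likewise gave no call in a main cluster. Cd248 was at 1297 ± 557 (SD, n = 2 lines) in cluster 9, 1119 ± 281 (n = 5) in cluster 7 and 988 ± 167 (n = 4) in cluster 3, and at 451 ± 111 (n = 5) in cluster 8, with lines from 319 to 602. The log2 fold change in cluster 8 was -0.67 (SE 0.32, adjusted p = 0.500, edgeR), lower in 5 of 5 lines. Clec3b was at 416 ± 140 (n = 4) in cluster 1 and 187 ± 59.3 (n = 5) in cluster 7. Neither gene had a break between neighbouring clusters in the order, also counting cluster 4.

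Over all 7 genes, cluster 9 had the highest median log2 fold change, 0.87 with 7 of 7 above 0, against a median of 0.20 over all genes. The directions by line were less uniform, since Penk (0.76) was lower than the same line's other clusters in 2 of 2 lines and Dpp4 (4.03) in 1 of 2. It had 0 calls, where 0.146% of all genes were called higher and 0% lower, and it rested on 85 cells of Cspg4dsRED and 3 of C57BL6. The median was 0.41 in cluster 3 (all genes 0.35), 0.26 in cluster 7 (0.29), 0.21 in cluster 1 (-0.08), 0.05 in clusters 6 and 11 (0.03 and -0.14), 0.03 in cluster 2 (-0.25), -0.22 in cluster 8 (0.25) and -1.85 in cluster 4 (-0.47). With the median gene set at 0 it was 0.69 in cluster 9, -0.02 in cluster 7 and -1.36 in cluster 4, so the sign in cluster 7 depended on the scaling. Dpp4, which rests on few reads, also bears on these medians: without it they were 0.35 in cluster 2, -0.03 in cluster 6, 0.001 in cluster 11 and 0.82 in cluster 9. In cluster 3 the median without Dpp4 was 0.25 (all genes 0.35) and in cluster 7 it was 0.34 (0.29). Genes called higher made up 0.152% in cluster 3, 0.0886% in cluster 1, 0.139% in cluster 6 and 0.0316% in cluster 11, and genes called lower 0%, 0.00633%, 0.0127% and 0%. No main cluster had more than 1 of the 7 genes called.

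Dpp4, the gene that with Pi16 gives the programme its name, was read in few cells. Of 1479 cells, 1164 had no Dpp4 read, 217 had 1 to 9, 67 had 10 to 99 and 31 had at least 100, and these 31 held 62.3% of all 9154 reads. The cells with 10 reads or more held 96.3%. A Dpp4 level is therefore set by a few cells of high count rather than by a level shared by the cluster, and the highest count in a cell was 490.

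Cells with many Dpp4 reads lay mostly in clusters 6, 3 and 8. Before thinning, 35 cells of cluster 6, 27 of cluster 3, 24 of cluster 8, 5 of cluster 9, 4 of cluster 7 and 3 of cluster 11 had at least 10 reads, and 0 in clusters 1, 2, 4, 5 and 10. At 50000 reads per cell the share was 10.7% in cluster 6 (20 of 187 cells, exact 95% interval 6.66% to 16.0%), 8.24% in cluster 8 (15 of 182, 4.69% to 13.2%), 3.30% in cluster 9 (3 of 91), 2.92% in cluster 3, 1.96% in cluster 11 (1 of 51) and 1.75% in cluster 7. These intervals cover counting error only, because neither the reads nor the cells of a sort are independent draws. The 0 of 105 cells in cluster 1 allows a share of up to 2.86% by a limit of 3 counts (exact 95% upper bound 3.45%), and the 0 of 64 in cluster 2 up to 4.69%, so smaller shares were not detectable with this number of cells.

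By line, Dpp4 in cluster 8 was at 0 in Acta2GFP and Cspg4dsRED, 21.1 in PdgfrbGFP, 21.3 in PdgfraGFP and 74.3 in C57BL6. In cluster 6 it was at 0 in Acta2GFP and Cspg4dsRED, 9.36 in PdgfraGFP, 23.8 in PdgfrbGFP and 56.1 in C57BL6. C57BL6 was highest in both clusters, and the lines at 0 had 11 and 14 cells in cluster 8 and 6 and 3 in cluster 6. Neither passed, with log2 fold changes of 3.48 (SE 1.35, adjusted p = 0.521, edgeR) in cluster 6 and 3.55 (SE 1.38, adjusted p = 0.288) in cluster 8. DESeq2 called both (4.79, adjusted p = 0.0279, and 4.92, adjusted p = 0.0129). Over all main clusters, 14.5% of C57BL6 cells, 14.0% of PdgfrbGFP, 7.69% of Acta2GFP, 4.55% of Cspg4dsRED and 4% of PdgfraGFP cells had a Dpp4 read at equal depth.

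Low Dpp4 counts moved with the position on the plate. Among cells that shared a row or column with a well of at least 100 Dpp4 reads, 35.1% had a read (213 of 607, exact 95% interval 31.3% to 39.0%), and among those that did not 8.44% (71 of 841, 6.65% to 10.5%), the wells of at least 100 reads themselves left out. The order held on all 6 plates, for example 33.5% against 9.84% on plate 074s, 51.5% against 22.6% on plate 881s and 14.3% against 9.42% on plate 515s. It also held in 4 of the 5 clusters without any cell of 10 or more reads, at 43.3% against 6.67% in cluster 1, 50% against 2.5% in cluster 5, 20% against 6.82% in cluster 2 and 26.7% against 2.73% in the mural cluster 10. In cluster 6 the shares were 44.8% against 14.7% and in cluster 8 33.8% against 16.3%. In cluster 4 no cell had a read, and in cluster 11 the order was turned, with 0 of 4 cells against 6 of 46. A few Dpp4 reads in a cell are thus not read here as expression, and the part of the plate position in the shares was not tested. Cells of at least 10 reads that shared no row or column with such a well still numbered 14 in cluster 3, 12 in cluster 8, 6 in cluster 6, 2 each in clusters 9 and 11 and 1 in cluster 7.

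**Figure D4:**
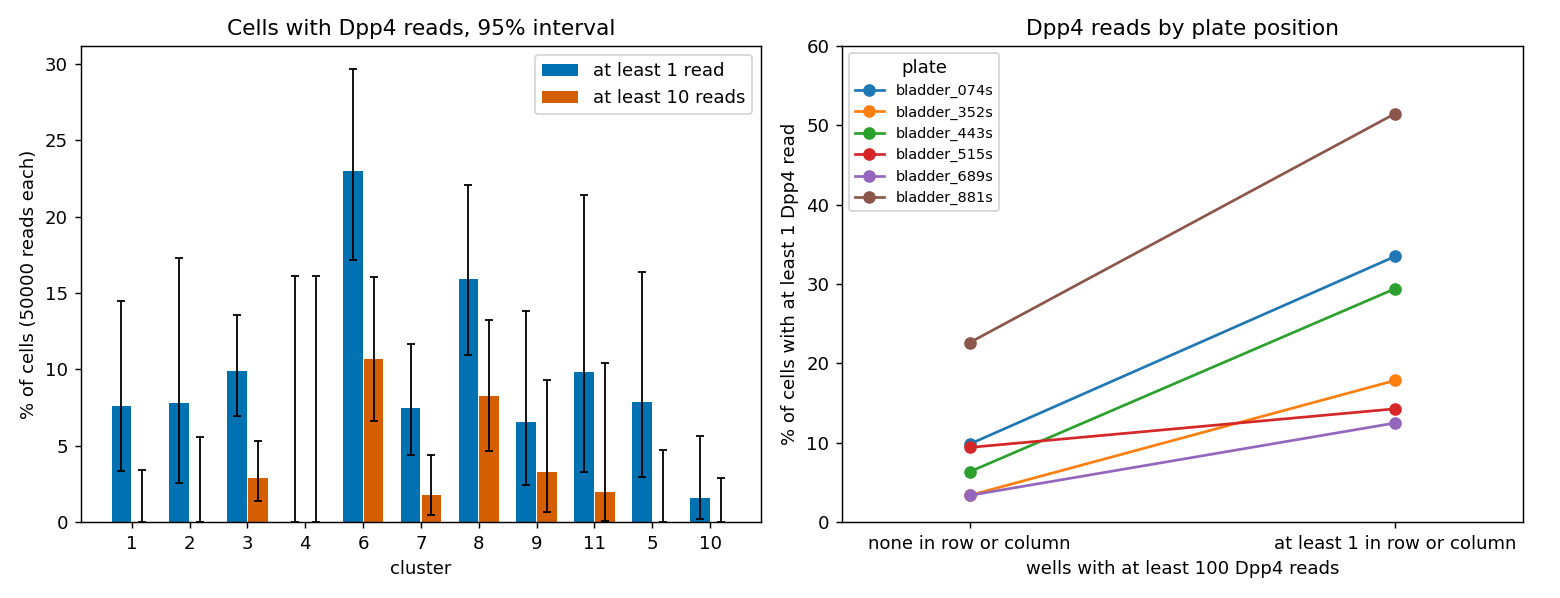
Left, share of cells (%) with at least 1 and at least 10 Dpp4 reads at 50000 reads per cell in each cluster, with exact 95% intervals; right, share of cells with a Dpp4 read by whether another well in the same row or column of the plate had at least 100 Dpp4 reads, with 1 line for each of the 6 plates. Clusters 6 and 8 have the highest shares at both limits, and the share rises from left to right on each plate.

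Few cells had reads of both Pi16 and Dpp4. At equal depth 147 of 1272 main fibroblast cells had reads of both (11.6%, exact 95% interval 9.85% to 13.4%), and these were all of the 147 cells with a Dpp4 read. The share was 23.0% in cluster 6 (17.2% to 29.7%) and 15.9% in cluster 8 (10.9% to 22.1%) and lay between 6.59% and 9.91% in clusters 1, 2, 3, 7, 9 and 11. It was 7.89% in cluster 5, within the range of those main clusters, 1.6% in cluster 10, and 0 of 21 cells in cluster 4, where a limit of 3 counts allows up to 14.3% and the exact 95% interval up to 16.1%. The shares from 1 read on include low Dpp4 counts, which moved with plate position. With at least 2 reads of each gene the main share was 7.94%. By cluster it was 18.7% in cluster 6, 13.2% in cluster 8, 8.16% in cluster 3, 7.84% in cluster 11, 5.49% in cluster 9, 1.75% in cluster 7, 1.56% in cluster 2 and 0% in clusters 1 and 4. It was 1.32% in cluster 5 and 0% in cluster 10. With all reads the main share was 22.6%.

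The other genes of the set were read together in most cells. Reads of at least 5 of the 7 were found in 98.1% of cells in cluster 1, 97.1% in cluster 3, 92.5% in cluster 6, 88.2% in cluster 11, 87.9% in cluster 9, 87.5% in cluster 2, 86.8% in cluster 7 and 84.1% in cluster 8, against 57.9% in cluster 5, 16% in cluster 10 and 14.3% in cluster 4. All 7 were read in 8.10% of main fibroblast cells and 17.1% of cluster 6 cells. Dpp4 was the gene most often missing. A gene counted here from 1 read on, and in cluster 10 Pi16 had 1 read or more in 86.4% of cells but at least 10 in 24.8%. The part of plate position in these shares was not tested.

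**Figure D5:**
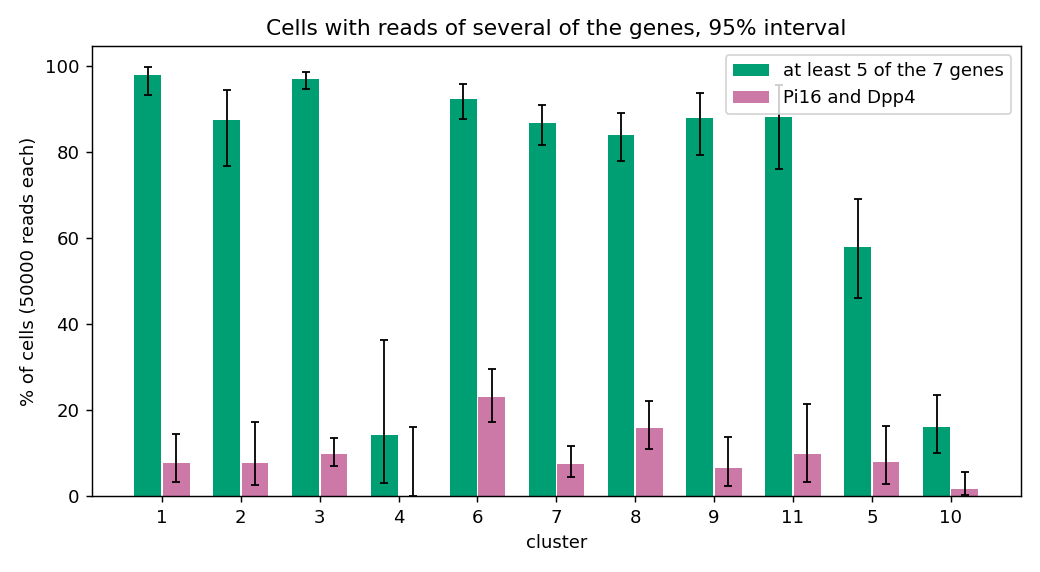
Share of cells (%) in each cluster with reads of at least 5 of the 7 genes and with reads of both Pi16 and Dpp4, at 50000 reads per cell with exact 95% intervals. The first share is 84.1% or more in 8 of the 9 main clusters and 14.3% in cluster 4, and the second is highest in clusters 6 and 8.

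Cell by cell, the set did not vary as 1 unit. Over the 1272 thinned main fibroblast cells, which share lines, plates and depth, Spearman's rho was 0.50 between Pi16 and Cd248, and within groups of 1 line and 1 cluster its median was 0.37, positive in 13 of 13 groups. It was 0.44 between Ly6a and Ly6c1, positive in 12 of 13 groups. Between Pi16 and Penk it was -0.32, with a median of -0.18 within groups and positive in 3 of 13. Dpp4 had rho between -0.03 and 0.08 with the other 6 genes. Within groups the median lay between -0.001 with Ly6a and 0.12 with Ly6c1. It was positive in 11 of 12 groups for Ly6c1, 9 for Pi16, 8 for Clec3b and 6 for each of Ly6a, Cd248 and Penk. Such values in sparse counts carry no finding.

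Genes whose pattern was most like that of each member were sought over the 43 sums of line and cluster by Pearson's r of log2(CPM + 1), as a description. They were Fbln1 (r = 0.94), Col14a1 (0.93) and Scara5 (0.93) for Pi16, of which the first encodes the matrix protein fibulin-1 and the second a collagen. For Cd248 they were Pi16 itself (0.84), Scara5 (0.80) and Adgrd1 (0.79). Adh1 (0.93), Gm16559 (0.91) and Ly6c1 (0.90) stood nearest to Ly6a, and Ly6a (0.90), Pdpn (0.87) and Adk (0.86) to Ly6c1. Dner (0.94), Slc43a3 (0.90) and Scn7a (0.90) were nearest to Clec3b, and Gm21973 (0.83), Gm4793 (0.78) and Slc45a3 (0.76) to Dpp4. Penk was followed most closely by A830012C17Rik (0.93), which overlaps it on the other strand, then by Gdf10 (0.78), a gene of the TGF-beta family, and Abca8a (0.78), a transporter gene. Clusters 5 and 10, where most of the 7 genes are low, enter these values. Over the 35 sums of the main clusters alone r was 0.82 to 0.89 for the genes nearest to Pi16, 0.73 to 0.80 for Cd248, 0.67 to 0.70 for Ly6a, 0.58 to 0.70 for Ly6c1, 0.67 to 0.86 for Clec3b, 0.75 to 0.83 for Dpp4 and 0.62 to 0.87 for Penk.

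Other adventitial genes were given by a list of 30, all tested, of which 7 varied among the main clusters, where 2.7% of all genes passed that test. In cluster 9, which had the highest median for the 7 genes, edgeR called 0 of 30 (6 at an unadjusted p under 0.05), with a list median of 1.04 against 0.20 over all genes. In cluster 4, which had the lowest, Dpt (dermatopontin, -4.39) and Col14a1 (-2.96) were lower and Igfbp5, which binds insulin-like growth factors, was higher (5.34). Of all genes 0.158% were called lower and 0.74% higher there, and the list median was -1.37 (all genes -0.47). Elsewhere 5 were called higher in cluster 7 (1.48% of all genes), 3 higher and 1 lower in cluster 2 (2.16% and 0.183%) and 1 higher in cluster 6 (0.139%). There were 0 calls in clusters 1, 3, 8 and 11, where 4, 1, 7 and 5 had an unadjusted p under 0.05. The genes called in cluster 7 were Efhd1 (4.83), Dact2 (5.59), Opcml (3.36), Wnt2 (2.84) and Fn1 (1.18), the last 2 encoding a secreted signal and fibronectin. In cluster 2 they were Opcml (5.29), Sema3c (1.81) and Cd55 (1.58), with Tppp3 lower (-2.05), and in cluster 6 Dpt (1.75). These names in clusters 2, 6 and 7 were chosen after their values were seen. The list median was 0.91 in cluster 7 (all genes 0.29), with 25 of 30 above 0 as in cluster 9, and 0.29 in cluster 2 (-0.25). It was 0.28 in cluster 3 (0.35), -0.20 in cluster 11 (-0.14), -0.22 in cluster 1 (-0.08) and -0.51 in cluster 6 (0.03). In cluster 8 it was -0.58 (0.25), with 7 of 30 above 0.

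A second list of 14 genes, known from fibroblasts within the parenchyma of other tissues, gave edgeR calls in clusters 2, 4, 7 and 8 among the main clusters. In cluster 8, where Penk was higher, Gdf10 (3.17, adjusted p = 0.000617) and Vit (6.18, adjusted p = 0.00281), the gene of the matrix protein vitrin, were higher. In cluster 7, where Penk was lower, F3 (tissue factor, -2.34), Gdf10 (-3.28) and Smoc2 (-1.84) were lower. In cluster 4 Vit was higher (9.91) and the chemokine gene Cxcl12 lower (-3.21), and in cluster 2 Gdf10 was lower (-4.61). Of all genes 1.29% were called higher in cluster 8 and 0.12% lower in cluster 7. The shares were 0.74% higher and 0.158% lower in cluster 4 and 0.183% lower in cluster 2. The list median was 0.38 in cluster 8 (all genes 0.25) and -1.03 in cluster 7 (0.29), with 0 of 14 above 0 in the latter. It was highest in cluster 6, at 0.59 (0.03) with 11 of 14 above 0. There 0 genes were called and 5 had an unadjusted p under 0.05. The genes in clusters 2, 7 and 8 were likewise named after their values were seen.

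Markers of other cells also moved with cluster 8, and their part in the Penk result was not tested. The markers named were picked after their values were seen. Kdr, an endothelial receptor gene, was higher (4.70) among 7 endothelial markers tested, as it was in cluster 6 (4.58), and Wt1 was higher (4.77) of 2 mesothelial markers tested. The 8 endothelial markers summed to 58.6 in cluster 8, within the 25.6 to 72.3 of the other main clusters, with Cdh5 at 0.144. The 6 mesothelial markers summed to 14.4, with Msln at 0.0013 and Lrrn4 at 0. The 9 mural markers summed to 248, against 61.8 to 227 in the other main clusters and 10595 in cluster 10.

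Cluster 5, beneath the epithelium, kept some of the 7 genes at the level of the main clusters and was below them in others. Clec3b was at 0 in Cspg4dsRED, 3.84 in PdgfraGFP, 9.51 in C57BL6 and 28.3 in PdgfrbGFP, and Penk was at 0.70 to 9.99. Both fell far below the main clusters, with log2 fold changes of -5.03 (SE 0.77, adjusted p = 1.4e-05, edgeR) and -5.07 (SE 1.00, adjusted p = 0.000687), each in 4 of 4 lines. Without PdgfrbGFP the value for Penk was -5.88 (adjusted p = 0.0130). For clusters 5 and 10 the limit was an absolute log2 fold change of 2, which 0.69% of all genes passed as lower and 3.31% as higher in cluster 5.

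Mural markers moved with cluster 5, and their part in these results was not tested. Of the 9, Acta2 (3.40), Myh11 (4.72) and Tagln (3.11) were called higher and Des lower (-4.08), and they summed to 578, against 61.8 to 248 in the main clusters and 10595 in cluster 10. Of the 5 fibroblast markers 1 was called, Lum, which was lower (-3.59), and 2 had a log2 fold change above 0. Their sum was 17493, against 7210 to 14623 in the main clusters, with Col1a1 at 7590 and Col1a2 at 6819.

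Pi16 in cluster 5 was at 171 in PdgfraGFP, 337 in PdgfrbGFP, 649 in C57BL6 and 887 in Cspg4dsRED, a log2 fold change of -1.80 (SE 0.49, adjusted p = 0.0200, edgeR) that did not reach the limit of 2. It reached the limit without cluster 4 in the reference (-2.24, adjusted p = 0.000187) and without Cspg4dsRED (-2.54, adjusted p = 0.000238). Cd248 was at 429 ± 209 (SD, n = 4 lines) and was not called, with a log2 fold change of -0.78 (SE 0.37, adjusted p = 0.332, edgeR), lower in 3 of 4 lines. Ly6a, in contrast, stood at 730 ± 208 (SD, n = 4 lines), second only to cluster 9, with a log2 fold change of 0.44 (SE 0.32, adjusted p = 0.721). Ly6c1 was at 141 ± 49.2, with a log2 fold change of -0.03 (SE 0.53) whose sign turned in 7 of 16 alternatives. Of the 30 other adventitial genes 9 were lower and 2 higher there, against 0.69% and 3.31% of all genes. The surface protein gene Cd34 was among the lower ones (-3.37), named after its value was seen.

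In the mural cluster 10, 5 of the 7 genes were lower, where 2.85% of all genes were called lower and 7.85% higher. The log2 fold changes were -5.27 for Penk, -4.65 for Clec3b, -4.34 for Pi16, -4.28 for Ly6a and -3.93 for Ly6c1, each in 4 of 4 lines and with adjusted p from 2.5e-09 for Ly6a to 0.000167 for Penk. Cd248, known from pericytes too, was at 91.7 in Acta2GFP, 99.6 in Cspg4dsRED, 155 in PdgfrbGFP and 664 in C57BL6. Its log2 fold change of -1.69 (SE 0.39, adjusted p = 0.00183, edgeR) did not reach the limit of 2, and without C57BL6, which had 3 cells in the cluster, it did (-2.29, adjusted p = 0.000834), whereas with median-of-ratios scaling it was -0.91 (adjusted p = 0.162). Dpp4 had 11 reads in all in the 125 cells. Pi16 was read at least once in 86.4% of the mural cells at equal depth but at least 10 times in 24.8%, against 83.5% of cells in cluster 8.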

How the data were processed

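The deposited table holds unscaled read counts for each gene in each cell, made by the authors from single reads of 50 bases. According to the methods of the study, trim galore removed adapters, reads were mapped to GRCm38 with TopHat2 under a Bowtie1 or Bowtie2 option, reads described there as doublets were taken out with samtools, and genes were counted with featureCounts. The annotation release, the strand setting and the treatment of reads that match several genes were not given in the sources used here, and cells had been filtered before deposit, so no doublet caller was run. The 92 spike-in entries stayed out of the scaling, the thinning and the tests, and are part only of the total reads per cell, of which they made up at most 6.85%. Line, plate and cluster came from each cell's labels. Gene names came from GENCODE M21, which held 46005 of the gene IDs and lacked 512.

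Counts were summed by line and cluster where at least 3 cells were present, which gave 43 sums. They were fitted together with edgeR 4.0.16 in R 4.3.3 (quasi-likelihood, TMM scaling, filterByExpr, line as a block, 28 residual degrees of freedom), with Benjamini-Hochberg adjustment over 15807 genes. For shares of cells, each cell was thinned to 50000 endogenous reads, which left out 6 cells with fewer, with exact Clopper-Pearson intervals. Total reads per cell, from 50276 upwards with spike-ins, limit what a share of cells can show, and the number of lines limits the tests. Python 3.11.15, numpy 2.4.6, pandas 2.3.3, scipy 1.17.1 and DESeq2 1.42.0 were also used. Alternatives were median-of-ratios scaling, the median gene set at 0, no filter, no block, sums by plate and line, each line left out, a fit of 2 classes of cells (a cluster against all others pooled), at least 10 cells a sum, thinned counts, DESeq2, Ly6c1 with Ly6c2, and, chosen after seeing the data, no cluster 4. The model was tested on simulated counts for the comparison of cluster 8, with 6000 genes. It recovered 0 of 67 genes changed 2-fold, 3 of 67 changed 4-fold and 19 of 66 changed 8-fold. A gene without a call may therefore still differ by such folds.

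The 7 genes and the gene lists were chosen with earlier results of these data known. Genes named are the 7, Ly6c2, the 3 genes nearest to each of the 7 by Pearson's r, and the genes of each list called in the clusters with the highest and the lowest median over the 7, cluster 9 and cluster 4. All other genes, those of the marker lists included, were named after their values were seen.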

Additional observations from a re-analysis of the deposited data

Results flagged for a closer look

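In 5 of the 56 groups of 4 or 5 lines examined, 1 line stood far from the others, measured as its gap to the nearest line over the range of the group. The cut gives about 5% of groups by chance only where values are normally distributed. Dpp4 levels with many zeros are not, so the number flagged is not compared with that rate. Penk in cluster 8 was at 1617 reads per 500000 in PdgfraGFP, against 595 in the next line. Dpp4 stood apart in 3 clusters: in cluster 8 it was at 74.3 in C57BL6 with the next line at 21.3, in cluster 7 at 7.78 in PdgfrbGFP with the next at 0.418, and in cluster 1 at 0.738 in PdgfrbGFP with the other 3 lines at 0. With 3 lines at 0, any level above 0 in the remaining line gives the highest value of this measure. Cd248 in the mural cluster 10 was at 664 in C57BL6, a value from 3 cells, with the next line at 155.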

How the results depend on the processing

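Of the 7 genes, the number called was 1 for the test over the 9 main clusters, 1 each in clusters 4, 7 and 8, 2 in cluster 5, 5 in cluster 10 and 0 elsewhere, and the changes were as follows. Without the replicate block of mouse line it was 3 over the main clusters, 2 in cluster 4 and 2 in cluster 8. It was 2 and 2 (main clusters and cluster 4) with no filter, 3 and 4 with at least 10 cells a sum and 2 and 3 with thinned counts. Sums by plate and line gave 6 over the main clusters, 1 in cluster 2, 2 in cluster 4 and 2 in cluster 7. With at least 10 cells a sum and with sums by plate, cluster 4 was 1 sum of Cspg4dsRED, assumed to vary like the other clusters. Over the main clusters 2.7% of all genes passed, 9.13% without the block, 1.86% with no filter, 0.751% with at least 10 cells a sum, 1.78% with thinned counts, 5.42% by plate and 5.2% with DESeq2. DESeq2 gave 3 in cluster 4, 1 in cluster 6 and 2 in cluster 8. The fit of 2 classes gave 3 in cluster 4 and 0 in clusters 7 and 8, and there Dpp4 in cluster 8 turned to a log2 fold change of -0.30. With the median gene set at 0, cluster 2 had 1, and without cluster 4 (chosen after seeing the data) cluster 7 had 0 and cluster 8 had 2. Leaving out each line in turn gave 0 to 1 over the main clusters, 0 to 2 in cluster 2, 0 to 3 in cluster 4, 0 to 1 in cluster 7, 0 to 1 in cluster 8, 2 to 3 in cluster 5 and 5 to 6 in cluster 10. Over all alternatives it was 2 to 3 in cluster 5 and 5 to 7 in cluster 10. The cause was not tested. Median-of-ratios scaling and adding Ly6c2 to Ly6c1 moved no count by over 1.5 times, though in cluster 4 Penk took the place of Pi16 under the former, as it did with the median gene set at 0, without Acta2GFP and without C57BL6. Median-of-ratios scaling moved the median of all genes from -0.47 to -0.27 in cluster 4 and from 0.24 to 0.62 in cluster 10. The 24 log2 fold changes called at least once gave 328 values that kept direction and call, 36 that gained the call, 13 that lost it and 1 that turned. Of the other 53, called in no setting, 28 turned in sign at least once (85 of 847 values, 8 of the 85 without cluster 4).

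All rests on 5 lines that the labels do not tie to animals, on clusters drawn from the same counts, and on sorting gates that differ by line. Clusters 4 and 9 have 2 lines each. Shares of cells with Dpp4 are limited by reads per cell, and values of 1 to 9 reads moved with plate position.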
